A study of Mus musculus with 6 samples.

Results

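C-type lectin receptors are surface proteins with a lectin fold that binds sugars, lipids or other ligands, and 10 of their genes were described in RAW264.7 cells, a mouse macrophage line from an Abelson leukaemia virus tumour. The 10 genes (Clec4n, Clec4e, Clec4d, Clec5a, Clec7a, Clec4a1, Clec4a2, Clec4a3, Clec12a and Clec10a) were matched by symbol to 10 of the 55401 gene models counted, and all 10 passed the filter on low counts. They were chosen by name with their measured differences between Nop16 siRNA and control siRNA already known, so the fold changes and levels of that comparison are a description without a test. The study asks what NOP16, a nucleolar protein of ribosome assembly, does in macrophages.

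Poly(A) RNA was sequenced from 3 Nop16 siRNA libraries (genotype label Nop16 KD; siRNA at 20 nM for 3 days with Lipofectamine RNAi Max) and 3 control siRNA libraries (genotype label WT). The treatment tag reads "no" for all 6, and the dose and transfection of the control siRNA are not given in the labels, so a response to transfection and one to Nop16 siRNA cannot be told apart. The labels do not state that replicates were grown as separate cultures, so each p-value reflects the spread among these libraries alone, and that spread may be technical.

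Macrophages use many of these receptors to sense fungi, mycobacteria and damaged cells. Dectin-2, Mincle and MCL signal through the ITAM motif of the Fc receptor gamma chain, MDL-1 signals through DAP12 and DAP10, and dectin-1 carries its own hemITAM; these motifs recruit the kinase SYK, which acts through CARD9, BCL10 and MALT1 to switch on NF-kB. DCIR and the CLEC12A receptor carry an inhibitory ITIM that recruits phosphatases, and MGL1, the product of Clec10a, is an endocytic receptor for galactose and N-acetylgalactosamine.

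Nop16, the targeted gene (ENSMUSG00000025869, chr13:54584185-54590090, minus strand, GRCm38), had 61, 72 and 84 counts in Nop16 siRNA replicates 1, 2 and 3, against 388, 437 and 402 counts in control siRNA replicates 1, 2 and 3. Its level was 4.22 ± 0.316 CPM (counts scaled by library size to a common total) in Nop16 siRNA libraries and 18.9 ± 1.26 CPM in control siRNA libraries (SD, n = 3 each), or 0.224-fold with a 95% interval of 0.19 to 0.264. Total counts were 15601477 to 18635089 in Nop16 siRNA libraries and 19778237 to 23061922 in control siRNA libraries, so every control library was deeper. The macrophage markers summed to 8321 to 8726 CPM in Nop16 siRNA libraries and 5260 to 5532 CPM in control siRNA libraries, and 6 of the 9 were higher and 1 lower at an edgeR adjusted p below 0.05, where 23% of all genes tested were higher and 22.4% lower. Lyz2, the most abundant of them, whose count is uncertain beside its close copy Lyz1, was at 2934 ± 185 CPM in Nop16 siRNA libraries and 1144 ± 153 CPM in control siRNA libraries (edgeR adjusted p = 0.000979, higher in 3 of 3 libraries). The dendritic cell markers summed to 33.9 to 39.4 CPM in Nop16 siRNA libraries and 13.97 to 16.7 CPM in control siRNA libraries, with 1 of 3 tested higher (Itgax), 1 lower (Batf3) and Siglech and Ccr7 at 0 in all libraries. Itgax was the largest part of that sum, at 31.6 CPM in Nop16 siRNA libraries and 8.10 CPM in control siRNA libraries. Batf3 was at 1.26 and 2.17 CPM in the same order, and Zbtb46, which did not pass, at 4.46 and 5.19 CPM. The neutrophil markers summed to 14.5 to 16.8 CPM in Nop16 siRNA libraries and 11.8 to 16.3 CPM in control siRNA libraries, none of the 2 tested passed, and S100a9 and Retnlg were at 0 in all libraries. T and NK cell markers summed to 4.07 to 4.95 CPM in Nop16 siRNA libraries and 4.52 to 5.88 CPM in control siRNA libraries, nearly all of it Lck, with Cd3e, Ncr1 and Nkg7 at 0. Fibroblast markers summed to 1.21 to 1.42 CPM in Nop16 siRNA libraries and 1.23 to 1.68 CPM in control siRNA libraries. B cell markers (Pax5 at 0) and epithelial markers stayed at or below 0.326 CPM in Nop16 siRNA libraries and 0.151 CPM in control siRNA libraries. The part of these marker levels in the receptor values was not tested, and in such bulk RNA fewer cells of a type and less RNA per cell cannot be told apart.

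At an edgeR adjusted p below 0.05, 9 of the 10 receptor genes passed, where 45.4% of the 14269 genes tested passed. Of these, 8 were higher (23% of all genes tested) and 1 lower (22.4%) in Nop16 siRNA libraries. The 3 libraries of each group did not overlap for 9 of the 10, where 52.5% of all genes tested did not, with 8 above (26.3%) and 1 below (26.2%). More than 2-fold higher levels were fitted for 3 receptors, where 1.58% of all genes tested were more than 2-fold higher and 3.15% differed more than 2-fold in either direction. Since the choice of genes used this comparison, nothing is read from these counts.

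Clec4n, which encodes dectin-2, a receptor for fungal mannans, differed most. It lies on chr6:123229843-123247021 (plus strand, GRCm38; ENSMUSG00000023349), and was at 81.1, 72.0 and 85.7 CPM in Nop16 siRNA replicates 1 to 3, against 15.5, 14.02 and 12.8 CPM in control siRNA replicates 1 to 3. The lowest Nop16 siRNA library was far above the highest control library. The means were 79.6 ± 6.95 CPM in Nop16 siRNA libraries and 14.1 ± 1.37 CPM in control siRNA libraries (SD, n = 3 each). The difference was 5.64-fold (95% interval 5.12 to 6.20; log2 fold change 2.50, SE 0.0701), and 0.0771% of all genes tested had a larger log2 fold change.

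Clec4e and Clec4d, neighbours that encode Mincle and MCL, a pair of receptors for the mycobacterial cord factor that associate with each other, were both higher in every Nop16 siRNA library. Clec4e (chr6:123281789-123289870, minus strand; ENSMUSG00000030142) was at 901.7, 915.7 and 937.6 CPM in Nop16 siRNA libraries and 382, 369.2 and 356 CPM in control siRNA libraries. Its fitted difference was 2.49-fold (95% interval 2.39 to 2.59; log2 fold change 1.31, SE 0.0295). Clec4d (chr6:123262111-123275265, plus strand; ENSMUSG00000030144) was at 309.3, 311.5 and 337.9 CPM in Nop16 siRNA libraries and 138, 130.9 and 134.7 CPM in control siRNA libraries. The groups were well apart for both genes, and the coefficient of variation was 1.97% in Nop16 siRNA libraries and 3.53% in control siRNA libraries for Clec4e. Clec4d differed 2.38-fold (95% interval 2.27 to 2.49; log2 fold change 1.25, SE 0.0352), an interval that shares values with that of Clec4e. With all libraries thinned to the depth of the shallowest one, the log2 fold changes were 2.52 for Clec4n, 1.32 for Clec4e and 1.26 for Clec4d.

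Clec5a encodes MDL-1, a receptor known for binding dengue virus and for signalling through DAP12 and DAP10. It (chr6:40574894-40585821, minus strand; ENSMUSG00000029915) was at 167.1, 175.8 and 185 CPM in Nop16 siRNA libraries, against 101.2, 109.1 and 103.6 CPM in control siRNA libraries. All Nop16 siRNA libraries were above all control libraries, and the difference was 1.68-fold (log2 fold change 0.75, SE 0.0393). Clec7a, the gene of the beta-glucan receptor dectin-1 (chr6:129461591-129472779, minus strand; ENSMUSG00000079293), was at 16.5, 14.7 and 16.6 CPM in Nop16 siRNA libraries and 12.7, 13.2 and 12.4 CPM in control siRNA libraries. The gap between the closest libraries was small, and the difference was 1.25-fold (95% interval 1.09 to 1.42; log2 fold change 0.32, SE 0.0972).

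The Clec4a genes, of which Clec4a2 encodes DCIR with its ITIM, were higher by less than the 3 leading genes. Clec4a2 (chr6:123106428-123143999, plus strand; ENSMUSG00000030148) was the lowest of all 10, at 5.75, 6.33 and 5.76 CPM in Nop16 siRNA libraries and 4.29, 3.40 and 2.51 CPM in control siRNA libraries. These values rest on 89, 110 and 106 counts in Nop16 siRNA libraries and 94, 79 and 50 counts in control siRNA libraries. The control libraries were spread widely, with a coefficient of variation of 26.1%, and the difference of 1.74-fold had a wide 95% interval of 1.37 to 2.22 (log2 fold change 0.80, SE 0.178). Of 50-base windows of its transcript, 15.02% also occur in transcripts of other genes, 9.41% in those of Clec4a4. Clec4a4 itself had 1 to 6 counts per library.

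Clec4a1 (chr6:122921848-122934619, plus strand; ENSMUSG00000049037), a relative of DCIR, was at 58.0, 59.2 and 64.1 CPM in Nop16 siRNA libraries and 46, 50.2 and 46.2 CPM in control siRNA libraries. The difference was 1.27-fold (95% interval 1.18 to 1.37; log2 fold change 0.35, SE 0.0555), with no overlap. Clec4a3, another DCIR relative (chr6:122952515-122969875, plus strand; ENSMUSG00000043832), was at 18.0, 17.0 and 20.0 CPM in Nop16 siRNA libraries and 15.3, 15.6 and 14.8 CPM in control siRNA libraries. The lowest Nop16 siRNA library was only slightly above the highest control library, and the difference was 1.21-fold (95% interval 1.07 to 1.36; log2 fold change 0.27, SE 0.0904).

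Clec12a, whose receptor carries an ITIM and binds uric acid crystals (chr6:129342691-129365303, plus strand; ENSMUSG00000053063), had overlapping groups. It was at 55.6, 57.9 and 61.7 CPM in Nop16 siRNA libraries and 58.0, 61.0 and 60.3 CPM in control siRNA libraries. The 95% interval of its difference, 0.911-fold to 1.05-fold, held no change (log2 fold change -0.03, SE 0.0525).

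Clec10a was the only receptor gene whose Nop16 siRNA libraries all lay below the control siRNA libraries. It (chr11:70156197-70170834, plus strand; ENSMUSG00000000318) was at 360, 365.4 and 329.6 CPM in Nop16 siRNA libraries, against 400.4, 394.8 and 382.1 CPM in control siRNA libraries. The difference was small, at 0.896-fold (95% interval 0.857 to 0.936; log2 fold change -0.16, SE 0.0324). Clec10a shares 10.6% of its transcript's 50-base windows with Mgl2, the neighbouring paralog of MGL1, and fragments that map to several places were counted for each. Mgl2 was at 589.2, 592.6 and 554.5 CPM in Nop16 siRNA libraries and 442.4, 455.7 and 443.7 CPM in control siRNA libraries, and rose (log2 fold change 0.37, edgeR adjusted p = 1.22e-16). Summed over both genes, of which Mgl2 was the larger part, the level was higher, at 949.1, 958 and 884.1 CPM in Nop16 siRNA libraries and 842.8, 850.5 and 825.7 CPM in control siRNA libraries (log2 fold change of the sum 0.15). Clec10a made up 37.9%, 38.2% and 37.3% of that sum in Nop16 siRNA libraries and 47.5%, 46.4% and 46.3% in control siRNA libraries.

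**Figure D1:**
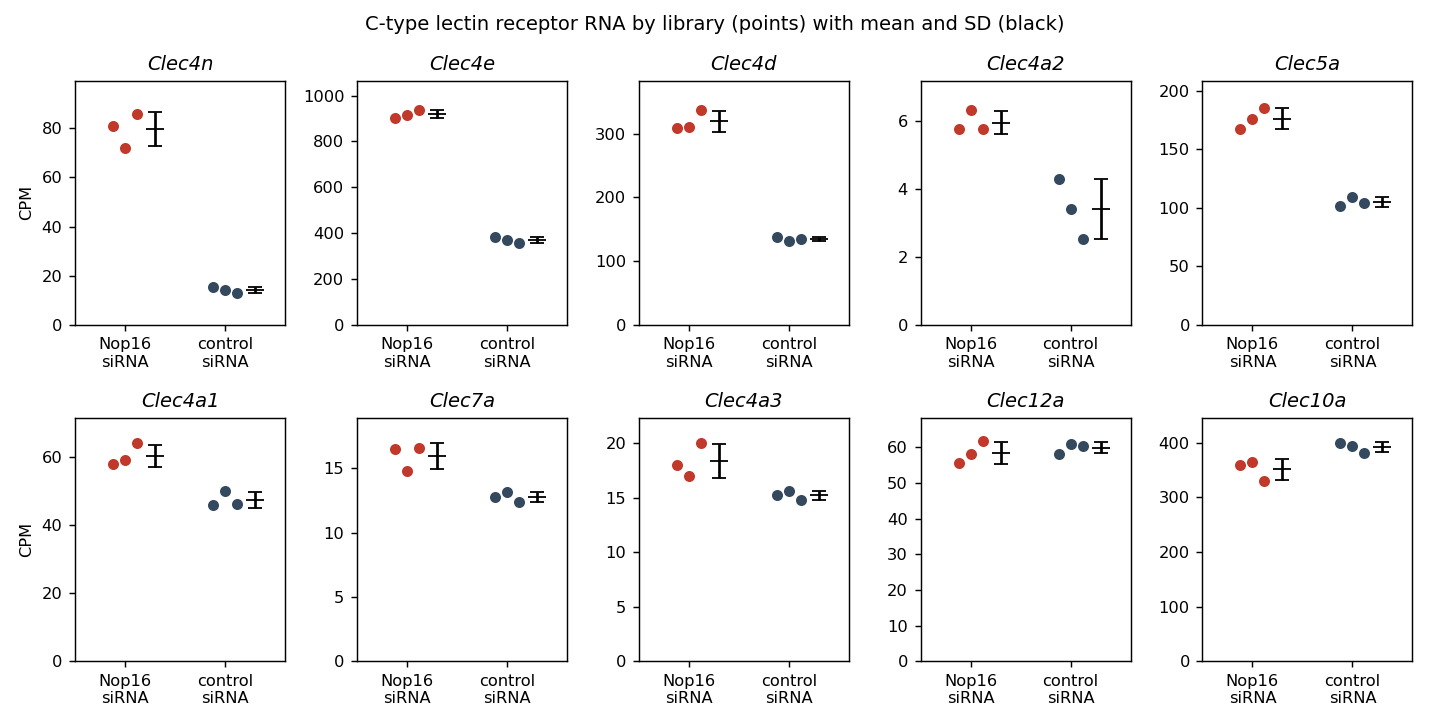
CPM of each C-type lectin receptor gene in every library, with Nop16 siRNA at the left and control siRNA at the right of each panel, and the mean and SD in black (n = 3 each). Clec4n at 72.0 to 85.7 CPM in Nop16 siRNA libraries stands far above its 12.8 to 15.5 CPM in control siRNA libraries, whereas the groups of Clec12a overlap.

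**Figure D2:**
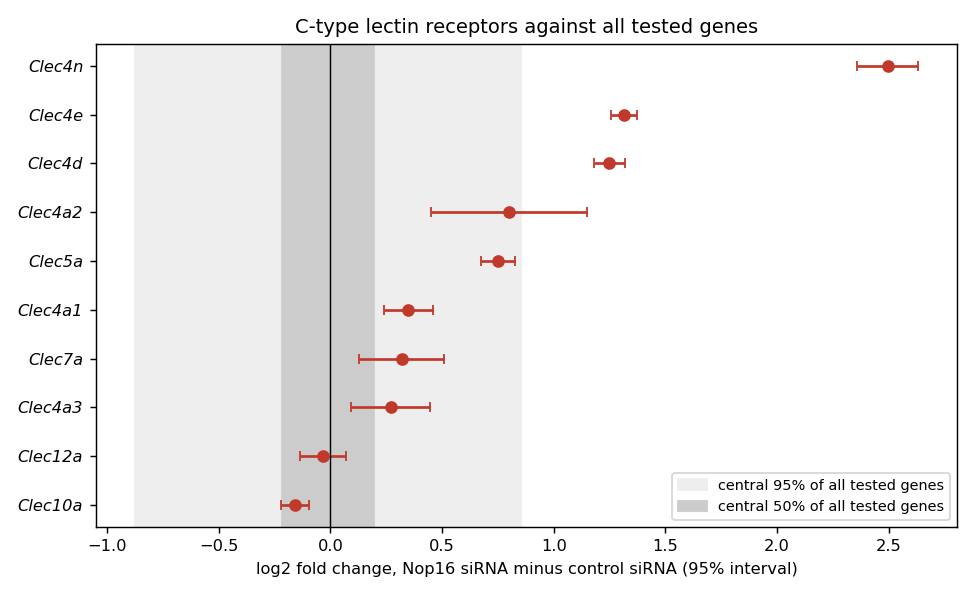
Log2 fold change (Nop16 siRNA minus control siRNA) of each receptor gene with its 95% interval, over shaded bands that hold the central 50% (-0.22 to 0.20) and 95% (-0.87 to 0.85) of all 14269 genes tested. Clec4n, Clec4e and Clec4d lie outside the wider band, and Clec12a and Clec10a lie within the narrower one.

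The receptors were ranked against each other in CPM per kilobase of the gene model's exonic length (CPM per kb), and the order depends on that length. In Nop16 siRNA libraries Clec4d came first at 199.9 CPM per kb on average, then Clec4e at 185.0, Clec10a at 121.3 and Clec4n at 56.1 CPM per kb. Clec5a (45.8 CPM per kb), Clec4a1 (38.8), Clec4a3 (13.8), Clec12a (10.6), Clec7a (6.04) and Clec4a2 (2.03) followed, and no neighbours in this order overlapped. In control siRNA libraries Clec10a came first at 135.4 CPM per kb, then Clec4d at 84.1, Clec4e at 74.3, Clec4a1 at 30.5 and Clec5a at 27.2 CPM per kb. Clec4a3 (11.5 CPM per kb), Clec12a (10.8), Clec4n (9.93), Clec7a (4.83) and Clec4a2 (1.16) followed, and Clec12a and Clec4n were the only neighbours that overlapped. With the length of the transcript with the longest coding sequence instead, chosen after seeing the data, the order in Nop16 siRNA libraries began with Clec4e at 364.7, Clec4d at 241.5, Clec5a at 205.1, Clec10a at 150.8 and Clec4n at 64.8 CPM per kb. In control siRNA libraries it began with Clec10a at 168.3, Clec4e at 146.6, Clec5a at 122.0, Clec4d at 101.7 and Clec4a1 at 30.5 CPM per kb, with Clec4n at 11.5. By exonic length, Clec4n stood above 6 of the other receptors in Nop16 siRNA libraries and above 2 in control siRNA libraries, at the 92.8th percentile of all genes tested in Nop16 siRNA libraries and the 63.5th in control siRNA libraries.

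**Figure D3:**
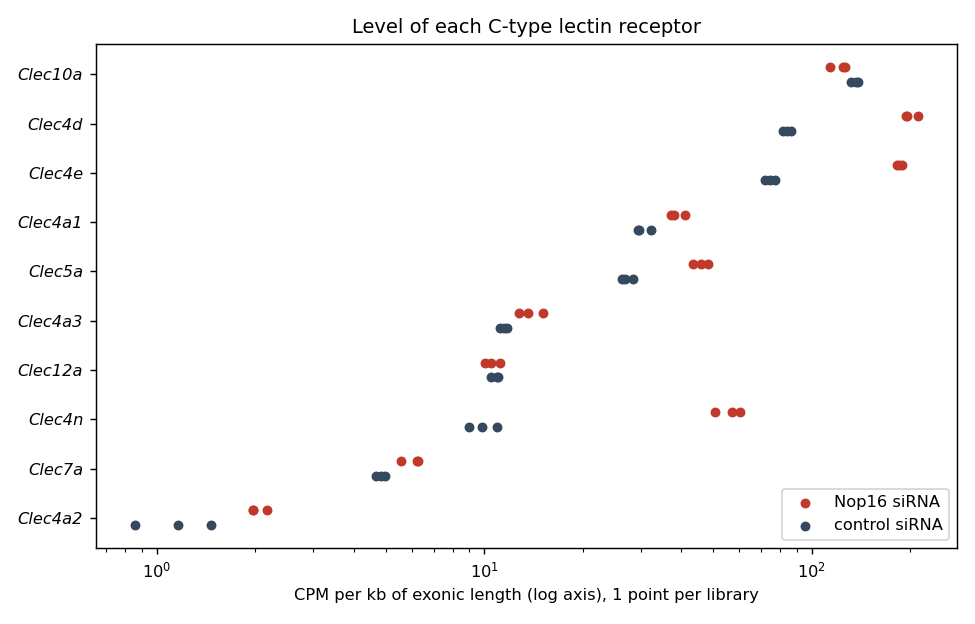
CPM per kb of exonic length (log axis) of each receptor gene, with 1 point per library, Nop16 siRNA in red and control siRNA in blue. The genes are sorted by their control level; Clec4n is the gene with the widest gap between groups, at 56.1 CPM per kb in Nop16 siRNA libraries and 9.93 CPM per kb in control siRNA libraries on average.

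The make-up of the receptor RNA differed with these levels. Over the 10 genes, the summed level was 668.9, 670.8 and 698 CPM per kb of exonic length in Nop16 siRNA libraries and 396.4, 391.8 and 380.9 CPM per kb in control siRNA libraries. Clec4n made up 8.25 ± 0.598% of that sum in Nop16 siRNA libraries and 2.54 ± 0.198% in control siRNA libraries (SD, n = 3 each). Clec10a made up 17.9 ± 1.38% of it in Nop16 siRNA libraries and 34.7 ± 0.121% in control siRNA libraries. The Clec4e to Clec4d ratio of CPM per kb overlapped between groups, at 0.939, 0.947 and 0.894 in Nop16 siRNA libraries and 0.892, 0.908 and 0.851 in control siRNA libraries. The Clec4n to Clec4d ratio did not, at 0.295, 0.260 and 0.286 in Nop16 siRNA libraries and 0.127, 0.121 and 0.107 in control siRNA libraries. The size of these shares and ratios depends on the length used. By transcript length Clec4e was above Clec4d, at 364.7 and 241.5 CPM per kb in Nop16 siRNA libraries and 146.6 and 101.7 in control siRNA libraries. Overlap of the groups in a ratio does not depend on it, since the length scales every library alike.

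Of the 10 genes, 9 lie on chromosome 6, and 6 of these form a cluster of 368 kb (chr6:122921848-123289870) in the order Clec4a1, Clec4a3, Clec4a2, Clec4n, Clec4d and Clec4e. The 3 genes with more than 2-fold differences stand together at its far end, with gaps of 15.1 kb from Clec4n to Clec4d and 6.5 kb from Clec4d to Clec4e. No exons of the 10 genes overlap those of other gene models. In the coding sequence, Clec4a1 and Clec4a3 were the closest pair, with 69.9% of the bases of the longer sequence identical, and Clec4d and Clec4n had 60.0%, Clec4e and Clec4n 59.2% and Clec4d and Clec4e 58.2%.

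Of 58 other gene models within 200 kb of the chromosome 6 receptors, 13 were tested and 5 were higher and none lower at an edgeR adjusted p below 0.05, nor lower at an unadjusted p below 0.05. That is 38.5% of them, where 23% of all genes tested were higher and 45.4% passed in either direction. Without Nop16 siRNA replicate 1, 2 or 3, 1 neighbour also passed as lower. Slc2a3, a glucose transporter gene, rose to 69.4 CPM in Nop16 siRNA libraries, against 39.0 CPM in control siRNA libraries (log2 fold change 0.83, edgeR adjusted p = 1.14e-19). Gabarapl1, an autophagy gene on the far side of Olr1 from Clec7a, rose by a log2 fold change of 0.73, and Necap1, C3ar1 (the receptor of complement C3a) and Agk rose by 0.40, 0.33 and 0.32 on that scale.

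**Figure D4:**
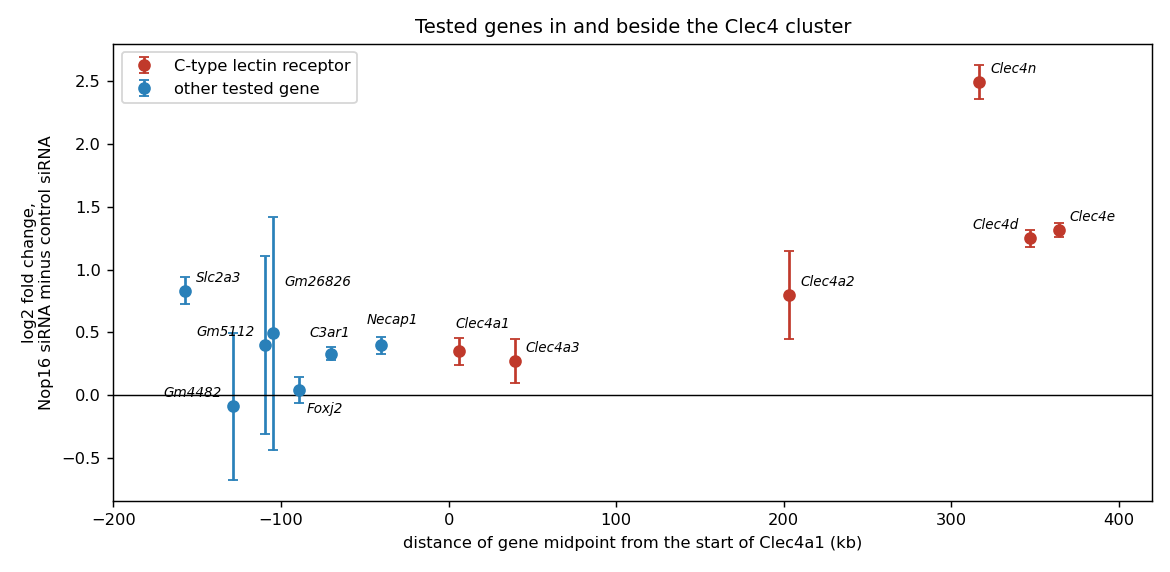
Log2 fold change (Nop16 siRNA minus control siRNA) with its 95% interval of the tested genes in and beside the Clec4 cluster, by distance in kb of the gene midpoint from the start of Clec4a1. The receptor genes in red run from 0.27 (Clec4a3) to 2.50 (Clec4n), and the other tested genes in blue reach 0.83 at Slc2a3.

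The 250 bases before the RefSeq start site were read on GRCm38.p6 for 8 receptors, and 4 are shown because they set 3 genes that were higher beside Clec12a, whose groups overlapped. Clec4n and Clec10a had no window, so no motif was read for them. For Clec4a2 and Clec12a the RefSeq start sites, at 123122690 and 129350244, lie inside the gene models, which start at 123106428 and 129342691. Bases before the first start of those 2 models were not read. Matches to GAGGAA (the core of a PU.1 site), TTGCNNAA (C/EBP), TGANTCA (AP-1) and GGGNNNNNCC (NF-kB), on either strand, are in capitals. The Clec4e window is chr6:123289872-123290121 on the minus strand, that of Clec4d is chr6:123261857-123262106 on the plus strand, that of Clec5a is chr6:40585806-40586055 on the minus strand and that of Clec12a is chr6:129349994-129350243 on the plus strand.
Clec4e: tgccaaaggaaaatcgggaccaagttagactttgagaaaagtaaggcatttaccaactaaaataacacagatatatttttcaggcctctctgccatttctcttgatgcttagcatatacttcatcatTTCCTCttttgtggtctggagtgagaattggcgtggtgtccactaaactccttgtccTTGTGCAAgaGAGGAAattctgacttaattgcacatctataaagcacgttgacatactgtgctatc
Clec4d: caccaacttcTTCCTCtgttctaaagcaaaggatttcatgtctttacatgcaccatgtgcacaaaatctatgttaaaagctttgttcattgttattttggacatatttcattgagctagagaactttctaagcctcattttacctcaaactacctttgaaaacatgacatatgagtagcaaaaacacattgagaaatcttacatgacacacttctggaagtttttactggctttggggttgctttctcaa
Clec5a: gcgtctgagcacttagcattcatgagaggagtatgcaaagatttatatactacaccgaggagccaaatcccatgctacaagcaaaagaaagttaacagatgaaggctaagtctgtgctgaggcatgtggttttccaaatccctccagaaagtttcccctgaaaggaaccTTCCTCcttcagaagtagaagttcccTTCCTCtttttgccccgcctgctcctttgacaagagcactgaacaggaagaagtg
Clec12a: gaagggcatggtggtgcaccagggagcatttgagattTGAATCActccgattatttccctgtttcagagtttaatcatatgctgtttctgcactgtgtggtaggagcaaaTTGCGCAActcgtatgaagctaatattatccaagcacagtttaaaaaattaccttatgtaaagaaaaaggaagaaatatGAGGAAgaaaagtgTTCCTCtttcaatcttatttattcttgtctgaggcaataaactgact
GAGGAA was found in any window of 7 of the 8 receptors with a window, all but Clec4a2, and in 23.3% of all 32851 promoter windows of that length. The receptor counts are by gene and the shares by window, so they are not like for like. Clec4a3 and Clec7a had more than 1 window, and the Clec4a3 window at chr6:122952265-122952514 held no match. TTGCNNAA was found in Clec4e and Clec12a (9.6% of all windows), TGANTCA in Clec12a (6.7%) and GGGNNNNNCC in Clec4a1 (45.8%). Of the 4 printed windows, Clec12a matched GAGGAA, TTGCNNAA and TGANTCA, Clec4e matched GAGGAA and TTGCNNAA, and Clec4d and Clec5a matched GAGGAA only. Whether these matches go with the differences in RNA level was not tested. Cebpb, which encodes a C/EBP factor, was at 61.6 ± 3.69 CPM in Nop16 siRNA libraries and 48.0 ± 2.56 CPM in control siRNA libraries, and rose (edgeR adjusted p = 1.63e-07, SD, n = 3 each). Spi1, which encodes PU.1 and was looked up for its link to GAGGAA after its values were seen, was at 255.7 CPM in Nop16 siRNA libraries and 259.9 CPM in control siRNA libraries and did not pass (edgeR adjusted p = 0.628). A match says only that these letters are present, and no role of either factor was tested. In the 4 printed windows no match of 1 motif overlaps that of another, and in Clec4e the TTGTGCAA starts at base -66 and the GAGGAA at base -56 from the start site.

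Genes that carry the receptors' signal were listed by role with earlier results of these data known, so the counts below are descriptions. Of all genes tested, 23% rose and 22.4% fell. Among genes with at least 5 CPM in 3 libraries, fitted alone, 5996 of 10855 passed, a larger share than the 45.4% set beside each list. The lists were not matched to other genes by level, so a share above 45.4% is not read as a result about a list. Of 26 adaptor and kinase genes, 17 rose and 3 fell (76.9% changed, against 45.4% of all genes tested; median log2 fold change 0.18, against 0.00 over all genes tested). Fcer1g, the partner of dectin-2, Mincle and MCL, was at 708.4 ± 28.7 CPM in Nop16 siRNA libraries and 615.4 ± 7.96 CPM in control siRNA libraries, and rose by a log2 fold change of 0.20 (edgeR adjusted p = 2.81e-08). Tyrobp, which encodes DAP12, was at 384.2 CPM in Nop16 siRNA libraries and 371.6 CPM in control siRNA libraries and did not pass (edgeR adjusted p = 0.195). Hcst, which encodes DAP10, was at 6.13 ± 1.076 CPM in Nop16 siRNA libraries and 4.72 ± 0.97 CPM in control siRNA libraries (log2 fold change 0.38, edgeR adjusted p = 0.0588). Hcst passed without Nop16 siRNA replicate 2 (0.0276) and without control siRNA replicate 3 (0.0206), and its adjusted p over all alternatives was 0.0206 to 0.323.

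Syk itself was at 105.4 ± 5.19 CPM in Nop16 siRNA libraries and 96.5 ± 4.31 CPM in control siRNA libraries, a rise of 0.13 in log2 fold change (edgeR adjusted p = 0.0119). That call was lost without Nop16 siRNA replicate 3 (0.110) and without control siRNA replicate 1 (0.109), over a range of 0.00186 to 0.110. The rises in this list were led by the kinase genes Tec (log2 fold change 0.89) and Fgr (0.72), by the adaptor gene Lat2 (0.53) and by the kinase gene Lyn (0.42) among genes of at least 5 CPM. The 3 that fell, named after their values were seen, were Yes1 (-1.45, below 5 CPM), Pik3cd (-0.34) and Plcg1 (-0.14). Yes1 and Pik3cd passed under every alternative in which they were tested, and Plcg1 was lost without Nop16 siRNA replicate 2 or 3 or control siRNA replicate 2 or 3 (edgeR adjusted p 0.0153 to 0.130 over the alternatives). Over all 15 alternatives, 6 lost the call of Plcg1, more than the libraries named here.

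Of 14 genes of inhibitory phosphatases and adaptors, 4 rose and 4 fell (57.1% changed, against 45.4% of all genes tested). Their median log2 fold change was 0.01. Cblb, a ubiquitin ligase that restrains SYK signalling, was at 25.4 ± 1.804 CPM in Nop16 siRNA libraries and 11.01 ± 1.11 CPM in control siRNA libraries, and rose 2.32-fold (edgeR adjusted p = 1.63e-17). Inppl1 and Inpp5d, the genes of the inositol phosphatases SHIP2 and SHIP1, rose by 0.43 and 0.19 in log2 fold change. Ptpn6, which encodes the ITIM-binding phosphatase SHP-1, was at 369.8 ± 11.6 CPM in Nop16 siRNA libraries and 394.6 ± 8.29 CPM in control siRNA libraries (log2 fold change -0.09, edgeR adjusted p = 0.00847). Ptpn6 missed the threshold without Nop16 siRNA replicate 3 (0.0726) and without control siRNA replicate 2 (0.0763), over a range of 0.00107 to 0.0763. Ptpn11, which encodes SHP-2, was at 85.3 CPM in Nop16 siRNA libraries and 79.4 CPM in control siRNA libraries and did not pass (edgeR adjusted p = 0.0549; 0.0313 to 0.153 over the alternatives). Pag1, a membrane adaptor gene, fell by 0.22 (edgeR adjusted p = 0.0147), a call lost without Nop16 siRNA replicate 1 (0.105), control siRNA replicate 1 (0.0557) or control siRNA replicate 2 (0.0530), over a range of 0.0069 to 0.105. Ptpn22 (-0.16) and Ubash3b (-0.14), named after their values were seen, were the others that fell. Ptpn22 was lost without Nop16 siRNA replicate 1 or 3 or control siRNA replicate 2 or 3, and Ubash3b without Nop16 siRNA replicate 1 or 3 or control siRNA replicate 1 or 3. Over all 15 alternatives, 7 lost the call of Ptpn22 and 5 that of Ubash3b, more than the libraries named here. The count for this list was 5 without Nop16 siRNA replicate 1, without Nop16 siRNA replicate 3 or without control siRNA replicate 2.

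Of 22 genes of the CARD9 and NF-kB arm, 10 rose and 3 fell (59.1% changed, against 45.4% of all genes tested). Their median log2 fold change was 0.08. Card9 rose to 70.3 ± 2.28 CPM in Nop16 siRNA libraries, against 58.1 ± 2.77 CPM in control siRNA libraries (log2 fold change 0.27, edgeR adjusted p = 8.33e-06). Bcl10 rose to 84.2 CPM in Nop16 siRNA libraries, against 70.5 CPM in control siRNA libraries (edgeR adjusted p = 4.91e-06). Malt1, the third gene of that complex, was at 27.9 CPM in Nop16 siRNA libraries and 29.4 CPM in control siRNA libraries and did not pass (edgeR adjusted p = 0.408). Nfkbia, the inhibitor gene that NF-kB itself switches on, rose to 59.4 CPM in Nop16 siRNA libraries, against 32.0 CPM in control siRNA libraries, and Relb, Nfkb2 and Trim62 rose by 0.83, 0.81 and 0.57 in log2 fold change. The 3 that fell, named after their values were seen, were Map3k7 (-0.14), Prkcd (-0.10) and Nfkb1 (-0.10). None of the 3 passed without control siRNA replicate 1. Over all 15 alternatives, 6 lost the call of Map3k7 and 5 that of Nfkb1, more than the libraries named here. The edgeR adjusted p ranged over the alternatives from 0.0118 to 0.116 for Map3k7, also lost without any of the other libraries but Nop16 siRNA replicate 2, from 0.00275 to 0.173 for Prkcd, also lost without Nop16 siRNA replicate 2, and from 0.00835 to 0.218 for Nfkb1, also lost without Nop16 siRNA replicate 2 or 3 or control siRNA replicate 3.

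Of 26 genes of the calcium, NFAT and MAPK arm, 7 rose and 7 fell (53.8% changed, against 45.4% of all genes tested). Their median log2 fold change was -0.01. The largest of these changes at 5 CPM or more were the falls of Itpr3 (-0.25), Nfatc3 (-0.24), Nfatc1 (-0.23) and Ppp3cb (-0.22). Of 29 genes known to respond to these receptors, 19 were tested, and 10 rose and 3 fell (68.4% changed, against 45.4% of all genes tested). Their median log2 fold change was 0.53. Left untested for low counts were Il6, Il12b, Cxcl1, Ccl17, Ccl22, Csf2, Csf3, Ifnb1, Nr4a3 and Socs1, named after their values were seen. Of these, Cxcl1, Ccl17, Csf2, Csf3 and Ifnb1 were at 0 in all libraries. Ptgs2, the inducible cyclooxygenase gene, rose to 66.4 CPM in Nop16 siRNA libraries, against 10.3 CPM in control siRNA libraries (log2 fold change 2.69, edgeR adjusted p = 1.86e-38). The chemokine genes Cxcl2 and Ccl3 rose by 1.51 and 1.21, and Tnf by 0.99, in log2 fold change. The 3 that fell, named after their values were seen, were Il23a (-2.33, below 5 CPM), Pycard (-0.18) and Irf5 (-0.09). Pycard was lost without Nop16 siRNA replicate 2 or control siRNA replicate 3, and Irf5 without Nop16 siRNA replicate 3 or control siRNA replicate 3. Of 20 tested genes of myeloid transcription factors, 8 rose and 2 fell (Klf4 and Runx1, named after their values were seen), which is 50% changed against 45.4% of all genes tested (median log2 fold change 0.06). The rises were led by Id2, which rose to 300.9 CPM in Nop16 siRNA libraries, against 140.7 CPM in control siRNA libraries; Klf2 and Mitf rose by 0.54 and 0.36 in log2 fold change.

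Of 93 other genes with a C-type lectin domain, 13 were tested, of which 5 rose and 1 fell (46.2% changed, against 45.4% of all genes tested). Their median log2 fold change was 0.31. Cd93 rose 2.82-fold, to 21.5 ± 3.18 CPM in Nop16 siRNA libraries, against 7.61 ± 0.6 CPM in control siRNA libraries (edgeR adjusted p = 2.86e-18). Klra2, one of the closely similar Ly49 receptor genes, whose counts are uncertain, and the thrombomodulin gene Thbd rose by 0.78 and 0.58 in log2 fold change. Asgr2, a galactose-binding receptor gene named after its values were seen, fell to 0.646, 0.403 and 0.652 CPM in Nop16 siRNA libraries, against 1.05, 1.29 and 1.00 CPM in control siRNA libraries (edgeR adjusted p = 0.0370). That call was lost under DESeq2, without the filter, with the replicate block and without each of the 6 libraries in turn, over a range of 0.0303 to 0.168.

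**Figure D5:**
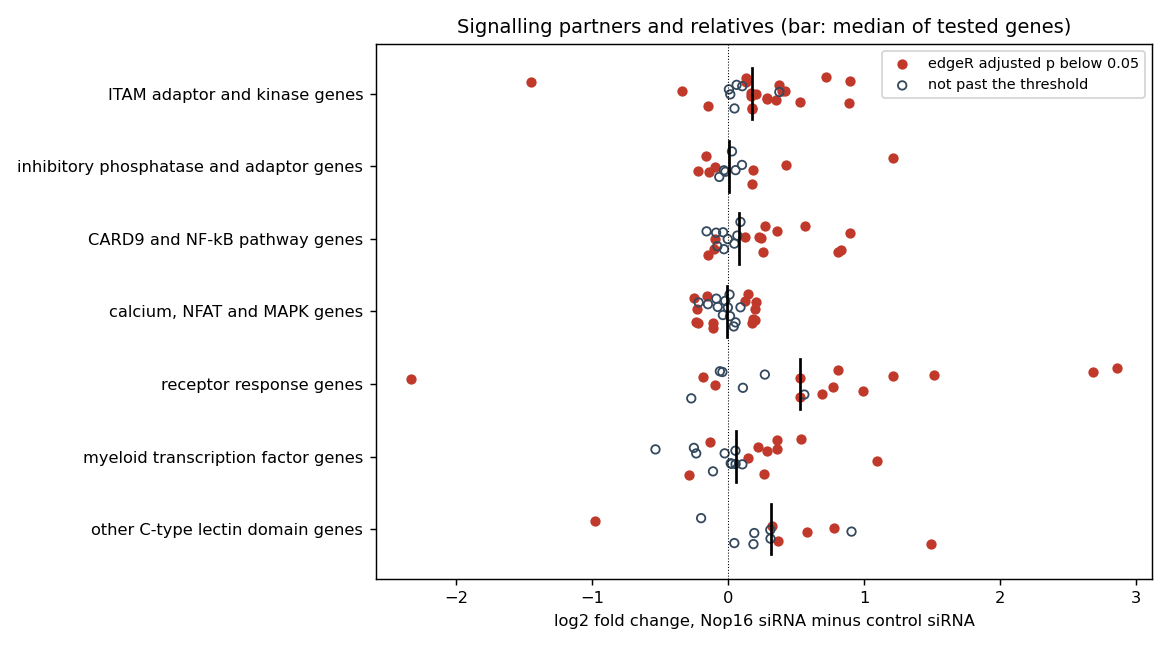
Log2 fold change (Nop16 siRNA minus control siRNA) of every tested gene in 7 lists, with filled points for an edgeR adjusted p below 0.05, open points otherwise and a bar at each median. The medians of the response genes (0.53) and other lectin domain genes (0.31) lie to the right, and those of the inhibitory genes (0.01) and calcium genes (-0.01) lie near 0.

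The 5 genes whose levels over the 6 libraries ran most like those of Clec4n, by root mean square distance in centred log2 CPM among 10782 genes, were Ms4a7 (0.106), Odc1 (0.139), Ccl7 (0.148), Krt23 (0.166) and Acod1 (0.17). That distance mostly reflects the difference between the groups, which was 4.69-fold (Krt23) to 7.41-fold (Acod1), against 5.64-fold for Clec4n. The list thus names genes with a like fold change, and no further likeness was tested. Ms4a7, a membrane protein gene of macrophages, was at 182.4 ± 5.91 CPM in Nop16 siRNA libraries and 37.0 ± 3.77 CPM in control siRNA libraries.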

How the data were processed

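Poly(A) RNA of 6 RAW264.7 libraries was sequenced with a directional kit, per the labels' protocols. Trim Galore and HISAT2 2.2.1 on GRCm38 (mm10) are named in the submitters' processing notes. The authors deposited raw fragment counts made by featureCounts 2.0.1, per the file headers, with Ensembl release 101 models under a filter that is not described, strand setting 2, a minimum overlap of 10 bases and proper pairs only. Multi-mapped and multi-overlapping fragments were counted for each gene, so counts of paralogs are uncertain and totals are not numbers of distinct fragments.

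From the counts, differences were fitted with edgeR 4.0.16 (R 4.3.3; quasi-likelihood test, TMM, filterByExpr, robust dispersion) over all genes, with Benjamini-Hochberg adjusted p below 0.05 as the threshold. Log2 fold changes run as Nop16 siRNA minus control, and CPM are TMM-scaled. The script was tested on simulated data. A floor of 3 counts lies at 0.130 to 0.192 CPM and covers counting error only, since fragments are not known to be distinct molecules. Chi-square per degree of freedom was 2.46 to 3.01 within groups. It assumes independent fragments, which these counts do not give, so it cannot tell whether any libraries came from the same sample.

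The receptors and lists were chosen with earlier results of these data known. Named were every receptor, 9 signalling genes, up to 4 changed genes per list with the largest change and at least 5 CPM on average, chromosome 6 neighbours likewise, the 5 genes most like Clec4n and the top macrophage marker; others are named as chosen after their values were seen. Unmatched entries were Clec2m, Klrh1, Attrn, Attrnl1 and Sts1. Clec2d is in the lists of other lectin genes and of neighbours. Transcripts came from GENCODE M21 (older than the models counted, same build), promoter windows from RefSeq, and overlaps from bedtools 2.31.1. Tried as alternatives were DESeq2 1.42.0, limma-voom (limma 3.58.1), other scalings and filters, robust dispersion off, thinning, a replicate block, summed paralogs, transcript length and leaving out each library.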

Additional observations from a re-analysis of the deposited data

How the results depend on the processing

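Of the 10 receptors, 9 passed under each of the other scalings, tests, filters and thinning, and 8 to 9 when a library was left out. Over all genes, 5681 of 14269 passed under DESeq2, 6211 of 24116 without the filter and 5996 of 10855 under the 5 CPM filter. When a library was left out, 5839 of 14697 (Nop16 siRNA replicate 3) to 6049 of 14646 (Nop16 siRNA replicate 1) passed. Since the choice of genes used this comparison, nothing is read from these receptor counts. The sum of Clec10a and Mgl2, chosen after seeing the data, had a log2 fold change of 0.15, the reverse in sign of the -0.16 of Clec10a alone; Mgl2, which rose, was the larger part of the sum, and Clec10a alone kept its sign under the other alternatives. With the Clec4a and Clec4b genes summed, 7 of 8 features passed, where 45.4% of all genes tested passed in the main fit. That sum, most of it Clec4a1, had a log2 fold change of 0.36. The Clec12a log2 fold change was -0.07 to 0.00, at its highest without Nop16 siRNA replicate 1. The count of inhibitory phosphatase and adaptor genes was 5 to 8 when a library was left out, which also leaves fewer samples. Libraries of the same replicate number showed no shared deviation (correlations of deviations 0.0175, -0.0198 and -0.0223), which cannot show whether they were prepared together. With the replicate block the count of receptors was 9, where 6429 of the 14269 genes tested passed. Scaling by library size alone gave a median log2 fold change of -0.02 over all genes. Among the receptors, Clec4a2, with 50 to 110 counts, had the widest interval.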
